A study of Saccharomyces cerevisiae with 20 samples.

Results

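The comparison described here sets ribosome footprints of a budding yeast strain labelled hrc1D against those of its base strain. All 4 libraries with hrc1D in their titles form one side and all 4 libraries titled MTF or MTFi form the other, 8 of the 20 libraries in the series. The members were chosen by their labels, and the 2 forms of the expressed enzyme were pooled within each strain.

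Each of the 2 sides has 2 groups of 2 libraries. The hrc1D libraries came from cells expressing EcFMT, the methionyl-tRNA formyltransferase of Escherichia coli, or its R42L form. The base libraries are labelled MTF and MTFi, names that the labels do not spell out. For every group the growth notes give Saccharomyces cerevisiae of the kind written fmt1, expressing EcFMT or the R42L form, grown in synthetic complete (SC) medium at 30 °C and harvested at an A600 of about 0.5. FMT1 is the yeast's own mitochondrial formyltransferase gene. The strain arf1D, with the same 2 enzyme forms in 2 libraries each, has labels of the same form as hrc1D and is given beside the base strain below. The labels do not say which vector or promoter carried the enzyme, whether a strain is 1 clone, or whether replicates came from separate cultures. The p-values therefore cover the spread among these libraries, which may be technical.

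The label hrc1D resembles HCR1, the gene of the initiation factor subunit eIF3j, and the data files spell it hcr1D. In yeast, Hcr1 is a loosely bound partner of initiation factor eIF3. It binds the small ribosomal subunit, takes part in start-codon selection, and is also known for a role with eIF3 and the ATPase Rli1 at the end of translation, where ribosomes are released and recycled. A ribosome footprint is the piece of mRNA that an 80S ribosome shields from RNase I, and its count on a gene follows both the amount of the mRNA and how many ribosomes sit on it.

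The hrc1D and base libraries come from different submissions, so a difference between strains and a difference between submissions cannot be told apart. Values are therefore shares within a library: a percent of the library's total, or CPM, counts per 1000000 of that total. A share can fall because the rest of the library rose, and these counts do not separate the 2. Total counts were 153501 to 274712 in hrc1D libraries and 307898 to 492363 in base libraries. The mean fragment length was 28.31 to 28.54 nt in hrc1D libraries and 28.95 to 29.27 nt in base libraries. Depth and fragment length thus moved with the strain, and their part in the results below was not tested. In arf1D libraries totals were 386355 to 505676 and mean fragment lengths 28.22 to 28.26 nt.

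The counts could not show the deletion itself. HCR1 (chromosome XII, 538792 to 539589, build R64) had 0 counts in all 4 hrc1D libraries and 0.84 counts over the 4 base libraries, all in MTFi replicate 2. FMT1 (chromosome II, 202056 to 203261) had 0 counts in all 8. The eIF3 subunit genes NIP1, PRT1, RPG1 and TIF35 and the recycling gene RLI1 also had 0 counts in all 8, and TIF34 had 2 counts in hrc1D. Over the 4 hrc1D libraries a count of 0 allows a level of up to 3.44 CPM, for counting error only. No opposite-strand feature could be resolved for any of these genes. YBL012C, outside RefSeq, has both SCT1 and FMT1 as candidates by name order. It was called higher in hrc1D and could not be given to either gene.

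Nearly all counts lay instead on open reading frame (ORF) features that are absent from the RefSeq gene table used for names, and most of the abundant ones lie opposite genes known to be highly expressed. Over the 8 libraries the feature YAL037C-B had 433627 counts, while CDC19, the pyruvate kinase gene on the other strand (chromosome I, 71786 to 73288), had 1. Likewise YCR013C had 231276 counts against 6 for PGK1, and YGL102C had 89250 against 0 for RPL28. A feature is therefore called below by its deposited name with the gene opposite it, and the sources used here do not give the strand setting of the count. A feature's counts are not read as translation of either strand's product.

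Footprint counts were spread over more features in hrc1D libraries than in base libraries. RefSeq ORFs that overlap no opposite-strand gene, counted under their own names, took 2.68% and 2.635% of the library in the EcFMT libraries of hrc1D and 2.194% and 2.528% in its R42L libraries. They took 0.5234% and 0.5221% in MTF and 0.5088% and 0.4815% in MTFi. Every hrc1D library had more than 4 times the share of any base library. The means were 2.51 ± 0.219% in hrc1D and 0.509 ± 0.0194% in base (SD, n = 4 each), a difference of 2.0 percentage points. An exact two-sided permutation test gave p = 0.0286, the smallest that its 70 splits allow, and the adjusted p over 10 tests of classes was 0.0286. The counts behind these shares were 3774 to 7289 per hrc1D library and 1567 to 2371 per base library.

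The rise was spread thinly over the gene set. At an equal depth of 150000 counts, 1331, 1267, 1112 and 1176 such ORFs were seen in the 4 hrc1D libraries, against 489, 491, 456 and 466 in the base libraries. The depth was equal in all counts, not in own-name counts, so a larger own-name share by itself allows more ORFs to be seen. The 10 ORFs with most counts held 10.6 to 12.1% of these counts in hrc1D libraries and 10.1 to 13.5% in base libraries, so no small set of ORFs carried them. Features outside RefSeq held 96.3 ± 0.299% of the library in hrc1D and 98.7 ± 0.0869% in base (SD, n = 4 each; exact permutation p = 0.0286). RefSeq ORFs that do overlap an opposite gene held 1.14 ± 0.0827% in hrc1D and 0.777 ± 0.0714% in base (SD, n = 4 each; exact permutation p = 0.0286). The 20 most abundant features together held 77.39 to 78.11% in hrc1D libraries and 85.12 to 86.14% in base libraries.

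Against the other deletion strain the difference was of the same size. In arf1D libraries the RefSeq ORFs under their own names took 0.5695 to 0.6056% of counts, and the same exact test of hrc1D against arf1D gave a difference of 1.92 percentage points with p = 0.0286. Both comparisons use the same hrc1D libraries. In the 2 depletion strains of the series, NIP1_depl and RLI1_depl, that share was 8.237 to 18.18%, in libraries of 58090 to 174629 counts.

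**Figure D1:**
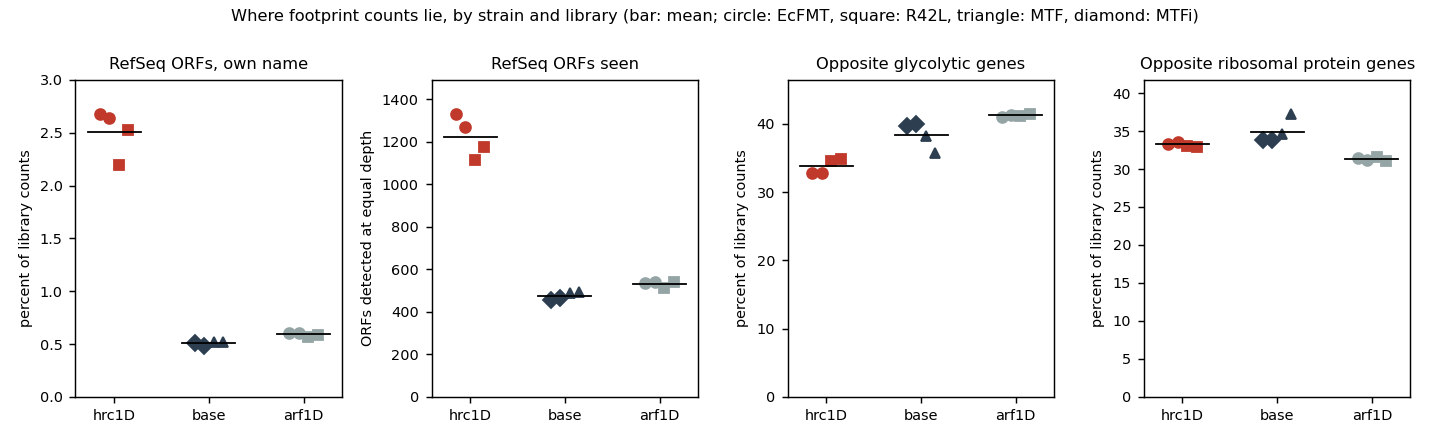
Percent of library counts (all panels but the second) and number of RefSeq ORFs seen at an equal depth of 150000 counts (second panel), by strain, with 1 point per library and a bar at the mean. The hrc1D libraries lie above base and arf1D in the first 2 panels, at 2.194 to 2.68% and 1112 to 1331 ORFs, and below both in the share opposite glycolytic genes.

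Across single features, edgeR's quasi-likelihood test on library totals tested 469 features that passed a filter on low counts. It called 358 at an adjusted p under 0.05, with 303 higher in hrc1D (64.6% of those tested) and 55 lower (11.7%). The 4 hrc1D libraries did not overlap the 4 base libraries in 318 features, 67.8% of those tested. The median log2 difference over all 469 was 1.02. With trimmed-mean (TMM) scaling, which removes most of that common shift, the median was 0.13 and the calls split into 179 higher and 161 lower. A rise in share of less than about 0.9 on the log2 scale therefore turns negative under such scaling. Of the 469 features, 96 reached a mean of 10 counts in hrc1D libraries alone and 7 in base libraries alone, so a low feature had mostly to be high in hrc1D to be tested. The filter asked for 34.3 CPM in 4 of the 8 libraries. All 4 base libraries reached that level in 321 features, of which 169 were higher and 55 lower in hrc1D. By class, 74 of 77 RefSeq ORFs under their own names were higher and 0 lower, but in 75 of the 77 fewer than 4 base libraries reached the level, so their direction was largely set by the filter. Of 366 features outside RefSeq, 214 were higher (58.5%) and 52 lower (14.2%), at a median of 0.76. With a filter at a mean of at least 50 counts the median over all features was 0.43. The lists below are set beside all 469 features, so the 1.02 given there overstates the gap for lists of abundant features.

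**Figure D2:**
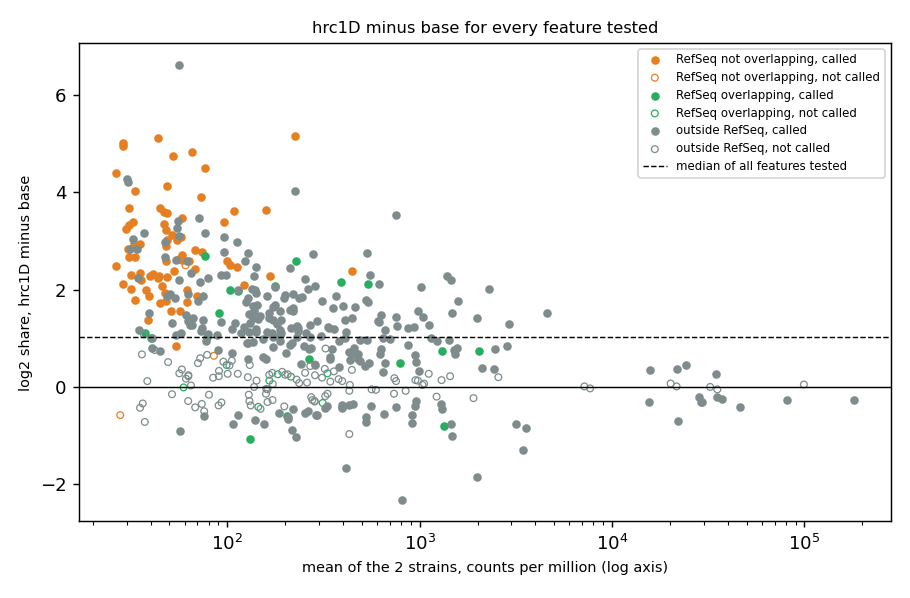
Log2 share, hrc1D minus base, against mean CPM of the 2 strains (log axis) for the 469 features tested, coloured by class and filled where the edgeR adjusted p was under 0.05. The dashed line is the median of all features, 1.02, which falls to 0.13 with TMM scaling, and the most abundant features lie near or below 0.

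Among the features with most counts were 3 opposite glycolytic genes, and 2 of these had smaller shares in hrc1D. The feature opposite CDC19, whose pyruvate kinase makes the last step of glycolysis, held 16.32%, 16.42%, 15.81% and 16.66% of counts in hrc1D libraries and 19.70%, 19.59%, 19.65% and 19.90% in base libraries. The groups did not overlap, and the log2 difference was -0.27 ± 0.06 (SE; edgeR adjusted p = 0.000377). YKL153W, opposite the phosphoglycerate mutase gene GPM1 (chromosome XI, 163642 to 164385), held 7.058%, 6.903%, 7.779% and 7.808% in hrc1D libraries, all below the 8.565%, 8.084%, 9.546% and 9.537% of base libraries (log2 -0.27, edgeR adjusted p = 0.00241). The GPM1 call was lost against MTF only (-0.17, adjusted p = 0.0681) and with hrc1D R42L libraries only (-0.20, adjusted p = 0.0669). YCR013C, opposite the phosphoglycerate kinase gene PGK1 (chromosome III, 137746 to 138996), held 10.08 ± 0.693% in hrc1D and 9.748 ± 1.21% in base (SD, n = 4 each), and the groups overlapped (log2 0.05, edgeR adjusted p = 0.6; -0.84 with TMM scaling). Of the 21 glycolytic and fermentation genes listed, only these 3 had a resolved opposite feature. Of the 3, 2 were lower and 0 higher, beside 11.7% lower and 64.6% higher over all features. Their median was -0.27 against 1.02 for all features, and -1.16 with TMM scaling.

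Taken as one class, these 3 features held 32.87%, 32.85%, 34.49% and 34.89% of counts in hrc1D libraries and 38.2%, 35.67%, 39.66% and 40.04% in base libraries. The difference of means was -4.62 percentage points (exact permutation p = 0.0286), with the lowest base value, in MTF replicate 2, closest to hrc1D. In arf1D libraries the class held 41.06 to 41.49%, and the difference of hrc1D from it was -7.47 percentage points (exact permutation p = 0.0286). The feature opposite CDC19 held 20.72 ± 0.131% in arf1D and that opposite GPM1 10.38 ± 0.0931% (SD, n = 4).

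Features opposite ribosomal protein genes, which make the subunits of the ribosome, differed in both directions. The whole class of 17 features held 33.33%, 33.62%, 33.04% and 32.93% of counts in hrc1D libraries and 34.66%, 37.28%, 33.88% and 33.85% in base libraries. The difference of -1.69 percentage points (exact permutation p = 0.0286) was -0.901 without MTF replicate 2. With only the tested features as denominator it was -1.21 with an exact permutation p of 0.143. Against arf1D, at 31.09 to 31.52%, the class was higher in hrc1D by 1.93 points (exact permutation p = 0.0286), so its direction depended on the strain it was set against. Divided by the ribosomal protein class, the glycolytic class averaged 1.02 ± 0.0411 in hrc1D and 1.1 ± 0.104 in base (SD, n = 4 each), a log2 difference of -0.114 that did not pass (exact permutation p = 0.171). Against arf1D, where the ratio was 1.32 ± 0.0138, the log2 difference was -0.375 (exact permutation p = 0.0286).

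Of 14 tested features opposite ribosomal protein genes, 4 were higher and 6 lower on library totals, beside 64.6% higher and 11.7% lower over all features. Their median was -0.03 against 1.02 for all features, and with TMM scaling 0 were higher and 13 lower. The largest fall was opposite RPL7B, a large-subunit protein gene (chromosome XVI, 173152 to 174702). YPL197C held 1.715%, 1.775%, 1.479% and 1.702% of counts in hrc1D libraries and 2.812%, 2.687%, 2.7% and 2.698% in base libraries. No hrc1D library came near a base library, and the log2 difference was -0.71 ± 0.08 (SE; edgeR adjusted p = 6.05e-08). The other features that fell lay opposite RPS2 (log2 -0.31), RPL22A (-0.30), RPL28 (-0.24), RPL10 (-0.20) and RPL8B (-0.20). For RPL8B the edgeR adjusted p was 0.0341, but 0.108 without MTF replicate 2, 0.115 without hrc1D R42L replicate 1, 0.053 without hrc1D EcFMT replicate 2, 0.159 against MTFi only, 0.164 with EcFMT only and 0.0542 with R42L only. RPL10 did not pass against MTF only (adjusted p = 0.0828), with EcFMT only (0.0599) or with R42L only (0.0754), and RPL22A did not pass with R42L only (0.0547). Without a filter on low counts RPL8B and RPL10 were at 0.0552 and 0.0522. Against MTFi only, RPL22A was at -0.19 and still passed (0.0272).

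The 4 features with larger shares lay opposite RPS27A, RPL36B, RPL12B and RPL12A, and all 4 had negative log2 differences with TMM scaling, where RPS27A did not pass (adjusted p = 0.507). YPL250W-A, opposite RPL36B, held 2.836%, 2.811%, 2.898% and 2.628% in hrc1D libraries, all above the 1.796%, 2.083%, 2.138% and 2.111% of base libraries (log2 0.46, edgeR adjusted p = 1.89e-05; -0.43 with TMM scaling). In arf1D it held 3.198 ± 0.0486% (SD, n = 4), above both. YKL156C-A, opposite the small-subunit gene RPS27A, had 3122 ± 553 CPM in hrc1D and 1804 ± 216 CPM in base (SD, n = 4 each; log2 0.79, edgeR adjusted p = 9.76e-06; -0.10 with TMM scaling). YDR417C and YEL053W-A, opposite RPL12B and RPL12A, rose by 0.36 and 0.34 on the log2 scale (-0.53 and -0.55 with TMM scaling). RPL12A and RPL12B are near-identical copies of one gene, as are many yeast ribosomal protein genes, so how counting split reads between such pairs is uncertain. RPP0, RPL33A, RPL39 and RPL43A, whose features held 1.97% to 3.59% of base libraries on average, had log2 differences of -0.05, 0.01, 0.07 and 0.00 that did not pass. With TMM scaling all 4 passed as lower, at -0.94, -0.88, -0.82 and -0.89. Against MTFi only, RPL43A passed as higher (0.22, adjusted p = 0.01).

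**Figure D3:**
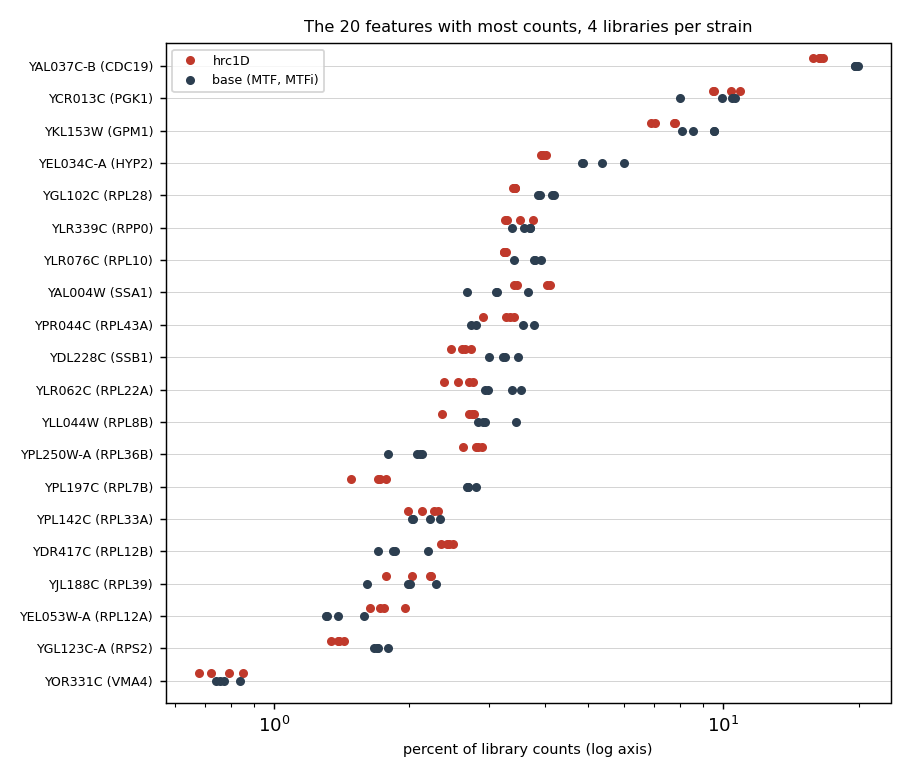
Percent of library counts (log axis) for the 20 features with the largest mean share, each with the opposite gene in brackets, and 4 points per strain. The red hrc1D points lie left of the dark base points for CDC19, GPM1, HYP2 and RPL7B, and right of them for RPL36B, RPL12B and RPL12A, whose direction turns with TMM scaling.

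Among translation factors, the feature opposite HYP2 had the most counts and fell. HYP2 encodes eIF5A, which helps the ribosome form difficult peptide bonds and release finished chains. YEL034C-A (opposite chromosome V, 85676 to 86149) held 3.944%, 4.024%, 3.920% and 3.976% of counts in hrc1D libraries and 6.018%, 5.371%, 4.870% and 4.847% in base libraries. The hrc1D values were tightly grouped and lay below every base library (log2 -0.41 ± 0.08 SE, edgeR adjusted p = 6.18e-05). It was the only tested feature of 23 elongation, termination and recycling genes.

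Of 4 tested features opposite initiation factor genes, 3 were higher and 0 lower in hrc1D on library totals, beside 64.6% higher over all features, and 2 were higher and 2 lower with TMM scaling. YPR016W-A lies opposite TIF6, the gene of eIF6, which keeps free large subunits from joining small ones (chromosome XVI, 592332 to 593069). It had 254, 248, 139.5 and 156 CPM in hrc1D libraries and 16.1, 24.6, 35.7 and 26.4 CPM in base libraries. The lowest hrc1D library was several times the highest base library, and the log2 difference was 2.98 ± 0.28 (SE; edgeR adjusted p = 8.74e-09; 2.09 with TMM scaling). Only 1 base library reached the filter's level there, so the feature could be tested only because it was high in hrc1D. YER165C-A, opposite the poly(A)-binding protein gene PAB1, had 372 ± 58.6 CPM in hrc1D and 102 ± 41.4 CPM in base (SD, n = 4 each; log2 1.82, edgeR adjusted p = 1.47e-06). YPL238C, opposite SUI3, which encodes the β subunit of eIF2, had 2702, 2628, 3151 and 2436 CPM in hrc1D libraries and 2013, 2248, 2033 and 2178 CPM in base libraries (log2 0.37, edgeR adjusted p = 0.00355), and it reversed to -0.53 with TMM scaling. YOR277C, opposite CAF20, which encodes an eIF4E-binding repressor, had 1756 ± 199 CPM in hrc1D and 2054 ± 253 CPM in base (SD, n = 4 each) and did not pass (edgeR adjusted p = 0.0799); it passed at 0.0485 without MTFi replicate 1, at 0.0399 without hrc1D R42L replicate 2, at 0.0233 against MTF only and at 8.54e-08 with TMM scaling (-1.12).

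Ribosome biogenesis genes gave 9 tested opposite features, with 2 higher, 2 lower and 5 not called, beside 64.6% higher and 11.7% lower over all features. Their median was -0.21 against 1.02 for all features, and 1 was higher and 8 were lower with TMM scaling. Besides TIF6, the clearest was NSR1, the yeast nucleolin gene, which acts in pre-rRNA processing (chromosome VII, 806412 to 807656). YGR160W had 1754, 1824, 2506 and 1909 CPM in hrc1D libraries and 5336, 6406, 3917 and 3884 CPM in base libraries. Every hrc1D library was below every base library, with MTF the higher of the 2 base groups (log2 -1.29 ± 0.17 SE, edgeR adjusted p = 1.41e-05). Features opposite HAS1, a nucleolar RNA helicase gene, and NOP4, a nucleolar RNA-binding protein gene, differed less and overlapped between strains. HAS1 had a log2 difference of 0.49 (edgeR adjusted p = 0.0119), reversed to -0.40 with TMM scaling. Its call was lost against MTF only (0.24, adjusted p = 0.181) and with hrc1D EcFMT libraries only (0.46, adjusted p = 0.068), while it was 0.79 against MTFi only. NOP4 had -0.39 (edgeR adjusted p = 0.0382), and without MTF replicate 2 it was -0.20 at an adjusted p of 0.205. NOP4 also no longer passed without MTF replicate 1 (adjusted p = 0.0557), hrc1D EcFMT replicate 2 (0.108) or hrc1D R42L replicate 1 (0.0987). It was -0.13 against MTFi only (adjusted p = 0.428) and -0.62 against MTF only (0.00184), and did not pass with EcFMT only (0.0981), R42L only (0.139), a filter at a mean of 50 counts (0.0506) or DESeq2 on library totals (0.0547).

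Of 7 tested features opposite chaperone and heat shock genes, 5 were higher and 1 lower, near the 64.6% higher over all features, and their median of 0.51 was below the 1.02 of all features. With TMM scaling 1 was higher and 4 lower, at a median of -0.39. The largest rise was opposite HSF1, the gene of the heat shock transcription factor (chromosome VII, 368753 to 371254). YGL074C had 221, 237, 238 and 182 CPM in hrc1D libraries and 32.2, 115, 52.0 and 69.1 CPM in base libraries, with no overlap (log2 1.69 ± 0.27 SE, edgeR adjusted p = 1.27e-05; 0.80 with TMM scaling) and 3 base libraries at the filter's level. HSF1 under its own name had 96.5 ± 37.4 CPM in hrc1D and 15.4 ± 6.19 CPM in base (SD, n = 4 each), but with 0 base libraries at the filter's level it could be tested only because it was high in hrc1D. Another feature, YGL072C, has AFT1 and HSF1 as candidates and was not called, with 3 hrc1D and 4 base libraries at that level. YLR217W, opposite CPR6, a cyclophilin gene that works with Hsp90, had 3938, 3655, 3743 and 3199 CPM in hrc1D libraries, above all 4 base libraries at 2177, 1979.9, 2039.6 and 1905 CPM (log2 0.85, edgeR adjusted p = 2.13e-07; -0.05 with TMM scaling).

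The features opposite CCT6 and CCT2, 2 subunits of the cytosolic chaperonin, rose by 0.67 and 0.51 on the log2 scale, and reversed to -0.22 and -0.39 with TMM scaling. The feature opposite SSB1, the Hsp70 that sits at the ribosome exit, held 2.623 ± 0.111% of counts in hrc1D and 3.249 ± 0.201% in base (SD, n = 4 each; log2 -0.31, edgeR adjusted p = 0.000792; -1.20 with TMM scaling). The feature opposite SSA1, the general Hsp70, held 3.759 ± 0.365% in hrc1D and 3.149 ± 0.401% in base (SD, n = 4 each; log2 0.26, edgeR adjusted p = 0.0164), and its sign turned to -0.64 with TMM scaling. Within hrc1D it was 4.107% and 4.041% with EcFMT and 3.478% and 3.411% with R42L. Without hrc1D EcFMT replicate 1 or replicate 2 its adjusted p was 0.0695 or 0.0619, with the R42L libraries alone it was 0.315, and against MTF only it was 0.0552.

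Features opposite genes listed for amino acid synthesis and the starvation regulator Gcn4 leaned lower in hrc1D. Of 7 tested opposite features, 5 were lower and 1 higher, beside 11.7% lower and 64.6% higher over all features. Their median was -0.57 against 1.02 for all features, and 6 were lower and 1 higher with TMM scaling. ARO9, which encodes an aminotransferase of aromatic amino acid breakdown (chromosome VIII, 375709 to 377250), led the falls. YHR137C-A had 360.3, 291, 180.2 and 221 CPM in hrc1D libraries and 1749.7, 1460.1, 1153 and 1049.8 CPM in base libraries. All hrc1D values lay far below all base values, and the log2 difference was -2.32 ± 0.21 (SE; edgeR adjusted p = 3.64e-07). In arf1D the feature had 2033 ± 93.1 CPM (SD, n = 4).

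Features opposite 2 genes of tryptophan synthesis also fell. YER090C-A, opposite TRP2, had 149 ± 13.1 CPM in hrc1D and 306 ± 47.2 CPM in base (SD, n = 4 each; log2 -1.02, edgeR adjusted p = 3.22e-05), and YDR354C-A, opposite TRP4, fell by 0.76 on the log2 scale (edgeR adjusted p = 0.0052). YDR355C, with TRP4 and SPC110 as unresolved candidates, is not counted in this list and was called higher in hrc1D. The feature opposite PRO3, the last gene of proline synthesis, had a log2 difference of -0.45 (edgeR adjusted p = 0.00258) with overlapping libraries, and it did not pass against MTF only (-0.30, adjusted p = 0.0609) or with hrc1D R42L libraries only (-0.33, adjusted p = 0.0928). MET28, a regulator of sulfur amino acid genes and the fifth that fell, was named after its value was seen (log2 -0.57, edgeR adjusted p = 0.00652). The 1 feature that rose lay opposite LEU4, which encodes the first enzyme of leucine synthesis: YNL103W-A had 757, 692, 878 and 476 CPM in hrc1D libraries and 174, 216, 292 and 223 CPM in base libraries (log2 1.64 ± 0.18 SE, edgeR adjusted p = 1.79e-07; 0.75 with TMM scaling).

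Both genes of the same list that were tested under their own names passed the filter only through hrc1D, with 1 base library at its level for ARO10 and 0 for MET13, so their direction was set by it. ARO10, whose decarboxylase acts after Aro9 in aromatic amino acid breakdown, had 202, 157, 145 and 195 CPM in hrc1D libraries and 45.0, 27.3, 26.0 and 26.4 CPM in base libraries. MET13, a methylenetetrahydrofolate reductase gene, had 51 counts over the hrc1D libraries and 2 over the base libraries.

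Genes of storage carbohydrate and glycerol metabolism gave some of the larger differences among abundant features. UGP1 encodes the enzyme that makes UDP-glucose for glycogen, trehalose and the cell wall (chromosome XI, 369891 to 371390). YKL036C, opposite it, had 945, 1001, 738 and 990.2 CPM in hrc1D libraries and 90.1, 131, 244 and 264 CPM in base libraries. The base groups themselves differed, with MTF below MTFi, yet all lay below hrc1D (log2 2.31 ± 0.28 SE, edgeR adjusted p = 2.47e-05; 1.43 with TMM scaling). YDL023C, opposite GPD1, which encodes the glycerol-3-phosphate dehydrogenase of the osmotic response, had 4131 ± 874 CPM in hrc1D and 1681 ± 451 CPM in base (SD, n = 4 each; log2 1.29, edgeR adjusted p = 0.000277), but it did not pass with TMM scaling (0.40, adjusted p = 0.104).

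YPR160C-A, opposite the glycogen phosphorylase gene GPH1 (chromosome XVI, 861306 to 864014), went the other way. It had 221, 178, 134 and 261 CPM in hrc1D libraries and 447, 358, 848 and 863 CPM in base libraries (log2 -1.67 ± 0.35 SE, edgeR adjusted p = 0.00167). All hrc1D libraries were lower, and MTF libraries lay closer to them than MTFi libraries. Of the 3 tested features of this list, 2 were higher and 1 lower, beside 64.6% higher and 11.7% lower over all features. The list's median was 1.29 against 1.02 for all features, and 0.40 against 0.13 with TMM scaling.

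Of 5 features opposite respiratory and stress genes, 3 were higher, 1 lower and 1 not called, near the 64.6% higher over all features, and 2 of the 3 lie opposite GRX6. With TMM scaling 2 were higher and 2 lower. IDH2 encodes a subunit of the mitochondrial isocitrate dehydrogenase of the citric acid cycle (chromosome XV, 580250 to 581359). YOR135C, opposite it, had 6218, 6279, 7634 and 7218 CPM in hrc1D libraries and 2235, 1739, 2848 and 2652 CPM in base libraries. The groups were well apart, at a log2 difference of 1.53 ± 0.13 (SE; edgeR adjusted p = 1.67e-08; 0.64 with TMM scaling). YBL100C, opposite ATP1, the α subunit gene of ATP synthase (chromosome II, 37053 to 38690), had 2340.0 ± 87.7 CPM in hrc1D and 3995 ± 465 CPM in base (SD, n = 4 each; log2 -0.77, edgeR adjusted p = 8.3e-07). The 2 features opposite GRX6, a glutaredoxin gene of the secretory pathway, both rose, by 1.75 for YDL011C (edgeR adjusted p = 2.34e-10) and by 1.03 for YDL009C (0.0136). YDL009C overlapped between strains, with 2 base libraries at the filter's level, and without hrc1D EcFMT replicate 2 its adjusted p was 0.0626. It did not pass with TMM scaling (0.15, adjusted p = 0.692) or with hrc1D R42L libraries only (0.81, adjusted p = 0.166). It was 0.51 against MTFi only (adjusted p = 0.0893) and 1.99 against MTF only (adjusted p = 5.74e-05).

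Genes of N-terminal processing and degradation act on the first residues of new proteins. Of 24 listed, 2 had a tested opposite feature and both rose, beside 64.6% higher over all features. YMR135W-A, opposite GID8, a subunit of the GID ubiquitin ligase, had 294, 295, 326 and 319 CPM in hrc1D libraries and 80.4, 87.5, 90.9 and 87.3 CPM in base libraries (log2 1.82 ± 0.18 SE, edgeR adjusted p = 1.76e-08; 0.93 with TMM scaling). YPR050C, opposite MAK3, the catalytic subunit gene of the NatC N-terminal acetyltransferase, had 864 ± 58.0 CPM in hrc1D and 429.8 ± 52.3 CPM in base (SD, n = 4 each; log2 1.00, edgeR adjusted p = 3.38e-07), but not with TMM scaling (0.12, adjusted p = 0.385).

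For ribosome-associated quality control and mRNA decay, 1 opposite feature and 1 own-name ORF of 22 genes could be tested. YGL214W, opposite SKI8, a subunit of the Ski complex that feeds mRNA to the exosome, had 335 ± 32.6 CPM in hrc1D and 459 ± 50.4 CPM in base (SD, n = 4 each; log2 -0.44, edgeR adjusted p = 0.0088). Its call was lost against MTFi only (-0.33, adjusted p = 0.0525) and with hrc1D EcFMT libraries only (-0.37, adjusted p = 0.0617). RKR1, the ubiquitin ligase gene that marks nascent chains on stalled ribosomes, had under its own name 107, 120.1, 105 and 104 CPM in hrc1D libraries and 28.9, 27.3, 32.5 and 30.5 CPM in base libraries, where 0 libraries reached the filter's level, so it could be tested only because it was high in hrc1D.

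**Figure D4:**
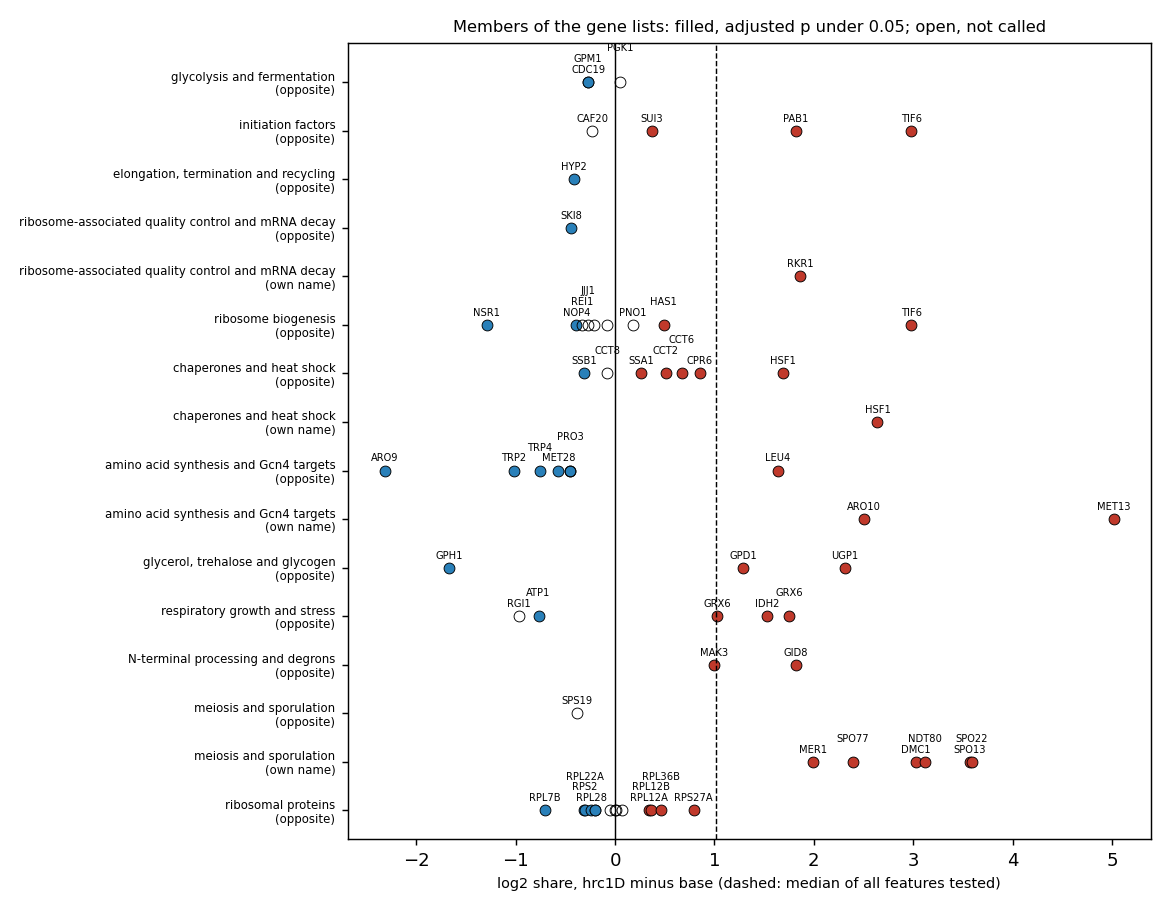
Log2 share, hrc1D minus base, for tested members of each gene list, as the feature opposite the gene or the ORF under its own name, with filled points at an edgeR adjusted p under 0.05. The dashed line is the median of all 469 features, 1.02; with TMM scaling the points shift down by about 0.9, so that members between 0 and 0.9 turn negative.

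Genes of meiosis and sporulation, which a vegetatively growing culture is not known to need, took some counts under their own names. Of 63 listed, 6 such ORFs passed the filter, with 0 or 1 base library at its level, so they had to be higher in hrc1D and their values are a description. SPO13, which acts in the first meiotic division, had 99.3, 120.1, 81.4 and 58.6 CPM in hrc1D libraries and 6.43, 2.73, 9.74 and 10.2 CPM in base libraries. DMC1, the meiotic recombinase gene, had 98.3 ± 13.1 CPM in hrc1D and 11.4 ± 6.61 CPM in base, and NDT80, the gene of the mid-meiotic transcription factor, had 92.5 ± 23.0 CPM in hrc1D and 10.7 ± 4.77 CPM in base (SD, n = 4 each). SPO22 had 87.0 ± 19.0 CPM in hrc1D and 6.87 ± 6.04 CPM in base. Over all 63 genes the raw own-name counts came to 901 in hrc1D libraries and 268 in the deeper base libraries. All RefSeq ORFs that overlap no opposite gene took a mean of 2.51% in hrc1D and 0.509% in base. The share under own names was thus higher well beyond this list. The only tested feature opposite a gene of this list, YNL203C opposite SPS19, did not pass (log2 -0.38, edgeR adjusted p = 0.184), but it passed as lower with TMM scaling (-1.27, adjusted p = 0.000139), with hrc1D R42L libraries only (-1.0, adjusted p = 0.0225) and in a fit of 1 mean per group (-0.54, adjusted p = 0.0409).

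Outside the lists, the largest rises were mostly of low features. Among features with a mean of at least 100 CPM and non-overlapping libraries, the largest log2 difference was that of YIL082W-A, a Gag-Pol ORF of the Ty3 retrotransposon. It had 427, 442, 395 and 489 CPM in hrc1D libraries. In base libraries it had 53.1 CPM in MTF replicate 1, 0.0273 CPM in MTF replicate 2 and 0 CPM in both MTFi libraries. The 16.5 base counts thus came almost wholly from 1 library, and in arf1D it had 6.8 ± 13.2 CPM (SD, n = 4). The fitted log2 difference, 5.17 ± 0.77 (SE; edgeR adjusted p = 0.000429), was 9.99 without MTF replicate 1, and such a value depends on the prior used for zeros. Ty3 has more than 1 copy in the genome, so how reads were split among copies is uncertain. The Gag-Pol ORF of another copy, YGR109W-B, was not called, with 1 hrc1D library and 3 base libraries at the filter's level. The rise of YIL082W-A is therefore not read as a rise of Ty3 as a whole.

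YLR149C-A, a feature of 87 nt between PEP3, a vacuolar sorting gene, and STM1, whose product binds and preserves idle ribosomes, was next. It had 445, 368, 529 and 365 CPM in hrc1D libraries and 16.1, 21.9, 35.7 and 28.4 CPM in base libraries (log2 4.03 ± 0.24 SE, edgeR adjusted p = 1.04e-11). The most abundant of the strong rises was YLR286W-A, opposite CTS1, the endochitinase gene that separates mother and daughter cells (chromosome XII, 708448 to 710136). It had 1482, 1485, 1407 and 1166 CPM in hrc1D libraries and 122, 129, 123 and 108 CPM in base libraries. No other feature had a smaller p, and the log2 difference was 3.53 ± 0.14 (SE; edgeR adjusted p = 7.24e-15; 2.64 with TMM scaling).

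YJL120W, opposite RPE1, an epimerase gene of the pentose phosphate pathway (chromosome X, 190374 to 191090), had 879, 890.5, 884 and 1088 CPM in hrc1D libraries and 99.7, 180.5, 101 and 160.5 CPM in base libraries (log2 2.76 ± 0.17 SE, edgeR adjusted p = 4.02e-11). YDR114C, a RefSeq ORF that overlaps MRX14, rose by 2.60 and YPR092W, between NVJ2 and ASR1, by 2.75. YGR139W, opposite the polyamine exporter gene TPO2, rose by 2.59. Under their own names, the small ORF YDR524W-C rose by 3.64, SHH3, a relative of a succinate dehydrogenase subunit gene, by 3.61, and HAP1, the gene of the heme-responsive regulator of respiration, by 2.59. HAP1 had 184, 167, 154 and 182 CPM in hrc1D libraries and 25.7, 13.7, 42.2 and 32.5 CPM in base libraries. All 12 features named for the largest rises stayed called and positive with TMM scaling. For YIL082W-A, YLR149C-A, YPR092W, YGR139W, YDR524W-C, SHH3, HAP1 and the feature opposite TIF6, however, 0 to 3 base libraries reached the filter's level, so those 8 could be tested only because they were high in hrc1D.

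After ARO9, the largest fall among the named features lay opposite RNR2, ahead of GPH1. YJL026C-A, opposite RNR2, the small-subunit gene of ribonucleotide reductase, which makes DNA precursors (chromosome X, 392404 to 393603), had 905, 818, 830.4 and 859.9 CPM in hrc1D libraries and 3303, 2978, 3206 and 2902 CPM in base libraries. Both groups were tight, and the log2 difference was -1.86 ± 0.11 (SE; edgeR adjusted p = 5.14e-12). YHL034W-A, opposite SBP1, an RNA-binding repressor of translation, had 2761, 2552, 2919 and 2046 CPM in hrc1D libraries and 4336, 4033, 5041 and 4954 CPM in base libraries (log2 -0.84 ± 0.11 SE, edgeR adjusted p = 1.05e-06). YHR063W-A, which lies among RPP1, PAN5 and the ribosome-associated chaperone gene SSZ1 and could not be given to one of them, had 978 ± 144 CPM in hrc1D and 1956 ± 219.9 CPM in base (SD, n = 4 each; log2 -1.0, edgeR adjusted p = 3.15e-07). YNL043C opposite YIP3, a gene of vesicle traffic, fell by 0.77, AUA1, which overlaps WWM1, by 0.80, and YJR079W, which overlaps the mitochondrial gene AIM24, by 1.07. Of these 6 features YJR079W was the least abundant in hrc1D, at 75 counts over the 4 hrc1D libraries.

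Set against arf1D in place of the base strain, edgeR tested 481 features and called 307 higher (63.8%) and 80 lower (16.6%), at a median log2 difference of 0.87. With TMM scaling 195 were higher and 190 lower. The hrc1D libraries did not overlap the arf1D libraries in 349 features (72.6%). Since both comparisons use the same hrc1D libraries, their values are only set side by side. For the largest falls the log2 difference from arf1D and from base was -2.88 and -2.32 opposite ARO9, -1.84 and -1.86 opposite RNR2, -1.24 and -1.67 opposite GPH1, and -0.98 and -1.29 opposite NSR1. For the largest rises it was 2.93 and 3.53 opposite CTS1, 3.48 and 2.98 opposite TIF6, 2.41 and 2.76 opposite RPE1, and 3.73 and 4.03 for YLR149C-A.

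The exception among the 24 features named for their large differences was YBR056C-B, which lies between MRX18 and MNC1. It had 493, 546, 401 and 495 CPM in hrc1D libraries, 625 ± 40.6 CPM in arf1D (SD, n = 4), and 74.0, 82.0, 65.0 and 69.1 CPM in base libraries. Both deletion strains thus stood far above base, whose libraries came from a different submission than those of hrc1D. The arf1D labels have the form of the hrc1D labels, so strain and submission cannot be told apart here. The log2 difference was 2.74 ± 0.18 (SE; edgeR adjusted p = 4.37e-11) from base and -0.35 ± 0.10 (SE; edgeR adjusted p = 0.003) from arf1D. YGR139W opposite TPO2 was in between, with 212 ± 37.2 CPM in hrc1D, 75.3 ± 13.0 CPM in arf1D and 34.2 ± 12.1 CPM in base (SD, n = 4 each).

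**Figure D5:**
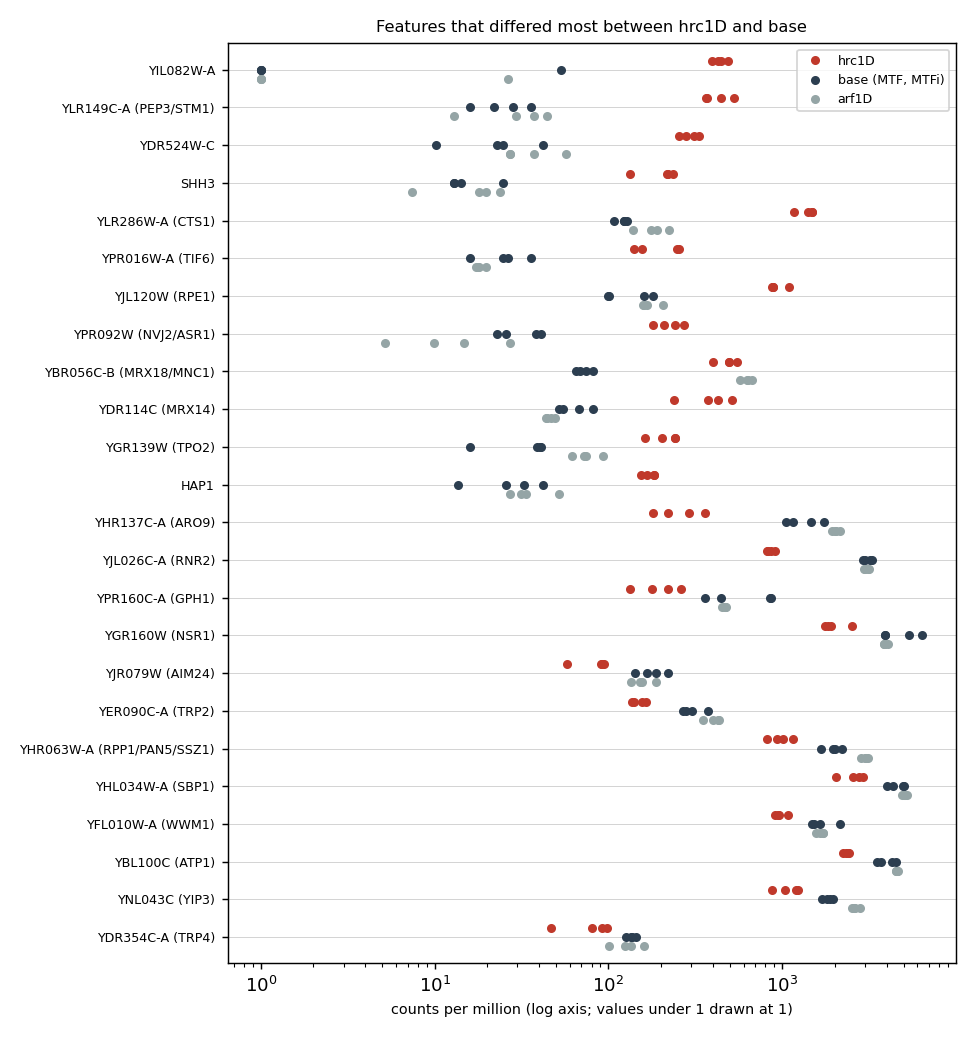
CPM (log axis; values under 1 drawn at 1) in each library for the 12 features that rose most and the 12 that fell most between hrc1D and base, with arf1D beside them. The hrc1D points lie apart from base in all 24 rows, which the rule required, and from arf1D on the same side in all but YBR056C-B.

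Within each strain the pooled libraries were not all alike. The 2 MTF libraries differed from each other more than any other pair, at a chi-square of 8.59 per degree of freedom over features, against 1.46 to 2.88 for the other pairs in hrc1D, MTFi and arf1D. In the MTF pair the feature opposite PGK1 held 9.929% and 7.992% and that opposite SSA1 3.664% and 2.684% of counts. The hrc1D R42L libraries had fewer RefSeq ORFs at equal depth (1112 and 1176) than its EcFMT libraries (1331 and 1267), and a larger share opposite glycolytic genes. That difference between enzyme forms was not tested.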

How the data were processed

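Per the submitters' processing notes, STAR 2.7.2b and RSEM 1.2.31 were used with build R64 on the footprint reads. The authors deposited expected counts per feature, with no scaling for depth, for 7127 features in each of the 20 libraries. For the strand setting of the count, nothing is given in the sources used here. The RefSeq table of assembly R64 matched 6047 features by locus tag. The gene opposite a feature was taken from an overlap of at least 50 nt where coordinates were known (67 features), from the order and strand in systematic names (274 with a single neighbour), or, for 50 features, assigned by hand from textbook knowledge of yeast gene order. For 298 features several candidates remained, which are given as "between" or "among".

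Expected counts were rounded and tested with edgeR 4.0.16 in R 4.3.3 (quasi-likelihood, robust, 1 mean per strain, library totals as library sizes), after filterByExpr at a minimum count of 10. Calls were made at a Benjamini-Hochberg adjusted p under 0.05 over all features tested. The common biological coefficient of variation was 0.136 against base and 0.067 against arf1D. SE is the absolute log2 difference divided by the square root of F. On simulated data for hrc1D minus base, with 444 features tested, 100% of features changed 2-fold and 100% of those changed 4-fold were recovered, and 3.79% of unchanged features were called. The simulation used a fixed spread smaller than that of the data against base. Its changes were as likely up as down, with no common shift, and none were made in features near the filter. These rates therefore do not carry over to the data. Class shares were compared with exact two-sided permutation tests over all 70 splits of 4 against 4 libraries, with p adjusted over 10 tests. No 2 libraries of a group agreed within sampling noise. Alternatives were TMM and RLE scaling, TMM factors from features outside RefSeq, DESeq2 1.42.0 with its own size factors and with library totals, other filters and designs, single enzyme forms, and leaving out each library.

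Named features were HCR1, FMT1, the eIF3 subunit genes and RLI1; the 20 of largest mean share; up to 12 per direction with the largest log2 difference among those called, with a mean of at least 100 CPM and no overlap between strains; and up to 4 members of smallest p from each of 13 gene lists. The members, lists and hand-written assignments were chosen with earlier results of these data known.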

Additional observations from a re-analysis of the deposited data

Results flagged for a closer look

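Among 164 sets of 4 libraries examined, 1 library stood apart from the other 3 of its strain by Dixon's criterion (95%) in 12, where chance gives about 1 in 20. The pooled strains mix 2 enzyme forms, so such a gap can also follow the groups. In hrc1D libraries, R42L replicate 1 was low for YLL044W opposite RPL8B (23570 CPM, others 27150 to 27790), for SHH3 (133.7 CPM, others 218.4 to 234.5) and for YJR079W, which overlaps AIM24 (58.14 CPM, others 91.2 to 94.64). R42L replicate 2 was high for YJL120W opposite RPE1 (1088 CPM, others 878.8 to 890.5), and EcFMT replicate 2 was high for RKR1 (120.1 CPM, others 104.2 to 106.6).

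In base libraries, MTF replicate 1 was high for YIL082W-A (53.14 CPM, others 0 to 0.02734), for ARO10 (45.03 CPM, others 25.98 to 27.34) and for YPL197C opposite RPL7B (28120 CPM, others 26870 to 27000). It was low for YPL250W-A opposite RPL36B (17960 CPM, others 20830 to 21380) and for YGR139W opposite TPO2 (16.08 CPM, others 38.97 to 41.01). MTF replicate 2 was high for YLL044W opposite RPL8B (34460 CPM, others 28490 to 29500) and for SHH3 (24.61 CPM, others 12.87 to 14.22). Of the 7 flags in base, all were MTF libraries.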

How the results depend on the processing

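The 24 features named for the largest differences kept their direction and stayed called under every alternative that could be fitted, against base and against arf1D. The 10 class differences kept their direction under every alternative, and the share opposite ribosomal proteins against base was -1.21 points (p = 0.143, exact permutation test) with only tested features as denominator. Leaving out a library leaves an exact test of 3 against 4 with a smallest p of 0.0571, so these are values without a test: against base and arf1D in turn, -2.51 to -2.28 and -2.28 to -2.05 points for features outside RefSeq, 1.94 to 2.11 and 1.86 to 2.02 for own-name ORFs, 0.334 to 0.401 and 0.186 to 0.252 for overlapping ORFs, -2.04 to -0.901 and 1.80 to 2.03 for ribosomal proteins, and -5.52 to -4.07 and -7.84 to -7.16 for glycolytic genes. The log2 ratio ranged from -0.180 to -0.0782 and from -0.395 to -0.356. Against arf1D, the glycolytic share differed by -8.39 points with hrc1D EcFMT libraries only and -6.56 with R42L only, and the log2 ratio by -0.425 and -0.325.

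Scaling moved the split of calls most. Against base, 303 higher and 55 lower became 179 and 161 with TMM, 184 and 160 with RLE, 171 and 151 with DESeq2, and 221 and 127 with TMM from features outside RefSeq. Against arf1D, 307 and 80 became 195 and 190, 206 and 178, 200 and 170, and 227 and 150. Filters and pooled fits moved the totals: against base, 734 called (688 higher) with no filter, 162 (117 higher) at a mean of at least 50 counts and 729 (672 higher) in the fit of all 20 libraries; against arf1D, 748 (672 higher), 196 (127 higher) and 706 (629 higher). Leaving out a library gave 353 to 403 calls against base (310 to 352 higher, 43 to 55 lower) and 405 to 433 against arf1D (330 to 349 higher, 75 to 84 lower). The replicate block gave 356 and 384 calls; same-numbered libraries did not deviate together (correlations -0.08 to 0.11), so the numbers do not pair the libraries.

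Reversed log2 differences from base, with TMM, RLE and DESeq2 in turn and then TMM from features outside RefSeq, were -0.64, -0.63, -0.63 and -0.39 opposite SSA1; -0.84, -0.82, -0.82 and -0.59 opposite PGK1; -0.53, -0.51, -0.51 and -0.28 opposite RPL12B; -0.55, -0.53, -0.53 and -0.30 opposite RPL12A; -0.39, -0.37, -0.37 and -0.13 opposite CCT2; -0.82, -0.80, -0.80 and -0.56 opposite RPL39; -0.40, -0.37, -0.37 and -0.14 opposite HAS1; -0.88, -0.86, -0.86 and -0.63 opposite RPL33A; -0.53, -0.51, -0.51 and -0.27 opposite SUI3; -0.43, -0.41, -0.41 and -0.17 opposite RPL36B; and -0.89, -0.87, -0.87 and -0.64 opposite RPL43A. With the first 3 only, they were -0.22, -0.20 and -0.20 opposite CCT6; -0.10, -0.08 and -0.08 opposite RPS27A; and -0.05, -0.03 and -0.03 opposite CPR6. These scalings change the scale of all features together by construction. Low counts under own names limit single ORFs more than the class sums.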
